A study of Mus musculus with 60 samples.

Results

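The serotonin, adrenergic and cholinergic receptor genes were followed by RNA-Seq in the dorsal and ventral dentate gyrus (DG) of the mouse hippocampus. They are the protein-coding genes whose symbol starts with *Htr*, *Adra*, *Adrb*, *Chrm*, *Chrna* or *Chrnb* directly followed by a number, and 41 of the 46480 genes counted (21534 of them protein-coding) met this rule. They comprise 14 serotonin receptor genes, 9 adrenergic receptor genes, 5 muscarinic acetylcholine receptor genes and 13 nicotinic acetylcholine receptor subunit genes (9 alpha, 4 beta). All mice were C57BL6J males, weaned on day 22 and collected at 80 days of age. They lived between those days in standard housing (SH), a small cage, or in an enriched environment (EE), a larger cage holding more mice with running wheels and toys that were exchanged. Region and housing gave 4 groups of 5 samples, and each sample was punched tissue pooled from several mice, so an SD is the spread between pools and not between animals. SH replicate 3 was left out in both regions, which left 4 SH and 5 EE pools, 18 samples in all.

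Serotonin, noradrenaline and acetylcholine reach the hippocampus through axons from the raphe nuclei, the locus coeruleus and the septum, and act there on receptors made by local cells. Most of these receptors couple to G proteins. *Htr1* family, *Adra2*, *Chrm2* and *Chrm4* receptors couple to Gi/o and lower cyclic AMP, *Htr4*, *Htr6*, *Htr7* and beta adrenergic receptors couple to Gs and raise it, and *Htr2* family, *Adra1*, *Chrm1*, *Chrm3* and *Chrm5* receptors couple to Gq and phospholipase C. *Htr3a* and the nicotinic subunits form ligand-gated ion channels. In the epithelium of the choroid plexus, which adjoins the hippocampus and makes cerebrospinal fluid, *Htr2c* is the known main serotonin receptor, and *Chrna3*, *Chrna5* and *Chrnb4* are known for high expression in the medial habenula.

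The bases before the transcription start show how unlike the promoters of these genes are. RefSeq windows (GRCm38.p6, the same assembly as mm10) were found for 30 of the 41 genes, 34 windows in all, and the 250 bases before each start were compared with those of all 32851 windows. CG dinucleotides, the main sites of DNA methylation in mammals, numbered between 1 and 41 in the windows of the receptor genes (median 9.5), against a median of 6 over all windows. The 4 windows below belong to the pair of genes with the largest ventral excess among the serotonin receptors, *Htr2c* (chrX:146962263-146962512, plus strand) and *Htr7* (chr19:36057508-36057610, minus strand), and to 2 genes higher in dorsal DG, *Htr2a* (chr14:74640624-74640839, plus strand) and *Chrna5* (chr9:54980630-54980879, plus strand). Each is written 5′ to 3′, ends before the first annotated exon in Gencode, and has its CG dinucleotides in capitals.
Htr2c: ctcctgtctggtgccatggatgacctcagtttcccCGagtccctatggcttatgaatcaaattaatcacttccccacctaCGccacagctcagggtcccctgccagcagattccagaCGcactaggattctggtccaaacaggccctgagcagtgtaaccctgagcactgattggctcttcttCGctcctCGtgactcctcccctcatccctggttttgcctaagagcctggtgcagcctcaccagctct
Htr7: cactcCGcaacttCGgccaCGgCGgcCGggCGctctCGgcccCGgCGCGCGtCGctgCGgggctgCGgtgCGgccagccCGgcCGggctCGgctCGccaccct
Htr2a: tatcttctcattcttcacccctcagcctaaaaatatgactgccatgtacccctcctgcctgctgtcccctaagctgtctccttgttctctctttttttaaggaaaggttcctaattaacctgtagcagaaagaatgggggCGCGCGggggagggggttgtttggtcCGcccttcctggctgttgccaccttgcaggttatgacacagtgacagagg
Chrna5: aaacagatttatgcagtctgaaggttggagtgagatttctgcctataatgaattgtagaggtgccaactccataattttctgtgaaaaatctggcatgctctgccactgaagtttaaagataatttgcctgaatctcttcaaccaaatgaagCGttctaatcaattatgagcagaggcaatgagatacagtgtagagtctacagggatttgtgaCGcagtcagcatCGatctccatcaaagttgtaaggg

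*Htr7* had 41 CG dinucleotides in its 250 bases, the most of any of these genes, and 19 of them lie in the 103 bases shown, whereas *Htr2c* had 5, *Htr2a* had 4 and *Chrna5* had 3 at this start. Searched on both strands, the letters CAGATG, an E-box of the kind that NeuroD1 binds, were in none of the 34 windows and in 14.4% of all windows. TGACG, the half-site of the cyclic AMP response element, was in 6 of them (17.6%, against 17.8% of all windows), those of *Adra2a*, *Adrb1*, *Chrna5*, *Chrnb1*, *Chrnb2* and *Htr7*. AGGTCA, a nuclear receptor half-site, was in 8 (23.5%, against 14% of all), including that of *Htr2c*. These searches describe letters only and give no evidence on binding.

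Between genes, levels were compared as TPM (transcript abundance scaled for transcript length and sample total), and between samples as CPM (counts scaled to library size after TMM normalization). *Chrm1*, the M1 muscarinic receptor, had the highest TPM of all 41 genes in each of the 18 samples, with a median of 16.6 (range 8.46 to 28.4), and held 18.4% to 29.0% of the summed TPM of the 41 genes. *Adra1d*, the alpha-1D adrenergic receptor, followed at a median of 8.65 TPM and was above the next gene in all 18 samples. *Chrna7*, the subunit of the homomeric alpha-7 nicotinic receptor, came next at 6.54 TPM and exceeded *Chrm3* in 17 of 18 samples.

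The next genes were not separated. *Chrm3* (median 4.41 TPM), *Adra2c* (4.24), *Chrnb2* (3.92) and *Htr4* (3.92) each exceeded the gene below it in only 10 to 12 of 18 samples. *Htr1a* (3.27 TPM) was above *Htr3a* (2.52) in all 18. As a class, the 5 muscarinic genes had the largest median share of the summed TPM in both regions, 38.8% in dorsal and 29.9% in ventral samples, and the 13 nicotinic genes the smallest (16.4% and 17.3%). The 14 serotonin receptor genes held 17.9% to 20.4% in dorsal and 25.5% to 27.7% in ventral samples, against 24.2% to 26.8% and 24.9% to 27.3% for the 9 adrenergic genes. Serotonin receptor genes were below adrenergic genes in all 9 dorsal samples and above them in 6 of 9 ventral samples. TPM was not compared between samples, because 6 abundant small RNAs took 60.1% to 74.0% of it, a share that varied from sample to sample. The exception is the choroid plexus covariate given below, which is a TPM sum and carries this variation.

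**Figure D1:**
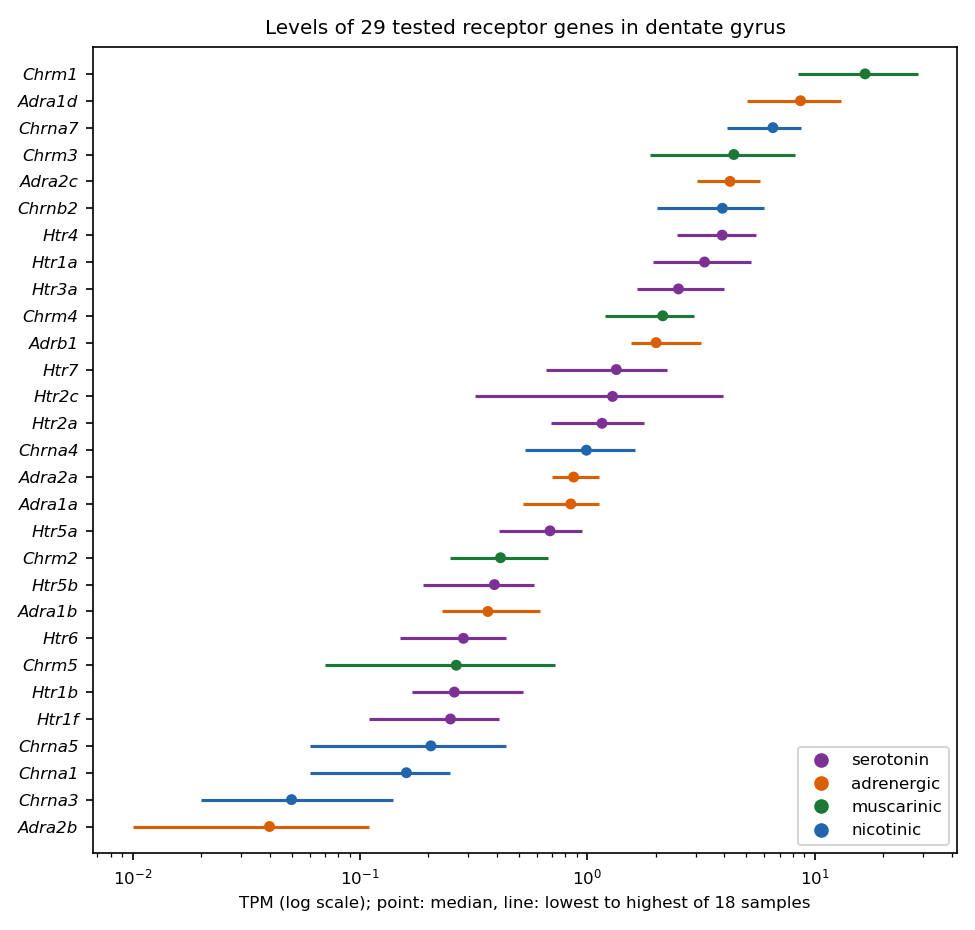
TPM (horizontal, log scale) of 29 of the 30 receptor genes tested, ordered by median. Points are the median and lines the lowest to the highest of 18 samples, coloured by family. *Chrm1* is highest at a median of 16.6 TPM, and *Adra2b* lowest at 0.04 TPM.

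Of the 41 genes, 30 had more than 10 counts in at least 2 samples and were tested, and 11 did not. The untested genes were *Htr1d*, *Htr2b*, *Htr3b*, *Adrb3*, *Chrna2*, *Chrna6*, *Chrna9*, *Chrna10*, *Chrnb1*, *Chrnb3* and *Chrnb4*, whose highest count in any sample lay between 1 (*Chrna9*) and 18 (*Chrna6* and *Chrnb4*). At this depth a count of 0 allows up to 3 counts, which is 0.106 to 0.131 CPM depending on the sample and covers counting error only, so absence was not shown for any of them. *Adrb3*, the beta-3 adrenergic receptor, was at 0 to 0.108 CPM in the 9 dorsal samples and at 0.188 to 0.453 CPM in the 9 ventral samples. These ranges did not overlap, but the gene had more than 10 counts in 1 sample and was left out of the main test by the limit on low counts. In the edgeR fit without that limit its log2 fold change of dorsal over ventral was -2.38 (SE 0.39; FDR = 1.47e-06), and in the fit on unstranded counts it was -2.03 (SE 0.27; FDR = 1.31e-06). With both strands counted, the sum for *Adrb3* over the 18 samples rose from 80 to 116. In the left-out SH replicate 3 it had 2 counts in each region. Strand mattered more for 3 other untested genes. Counting both strands raised the summed count over the 18 samples from 19 to 459 for *Chrna2*, from 133 to 950 for *Chrnb1*, and from 6 to 168 for *Htr2b*, which lies across from *Psmd1*, so their reads in an unstranded count came mainly from the other strand.

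The first question was which of these receptors differ between the dorsal and the ventral DG. Averaged over the housings, 13 of the 30 tested genes (43.3%) passed an FDR under 0.05 with a fold change over 20%, against 32.7% of all 17040 genes tested. By FDR alone, 19 of 30 passed (63.3%, background 58.4%). FDR is the Benjamini-Hochberg adjusted p of the edgeR quasi-likelihood test over all tested genes. In dorsal DG 7 genes were higher (background 15.9%), namely *Adra2b*, *Adra2c*, *Chrm1*, *Chrm3*, *Chrna5*, *Htr2a* and *Htr4*. In ventral DG 6 were higher (background 16.8%), namely *Chrm4*, *Chrm5*, *Htr1a*, *Htr2c*, *Htr3a* and *Htr7*. Each of the 13 had the same direction in all 9 pools, which are the pools they were called from. The uncalled *Chrna7* and *Chrnb2* did too, and the share over all tested genes was not computed. The median absolute log2 fold change was 0.31 in the 30 genes and 0.19 over all tested genes, and the signed median of the 30 was -0.03.

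Dorsal and ventral values were separate over all 9 pools, with no overlap, for 9 of the 30 genes (30.0%, against 18.9% of all tested genes). These were *Chrm1*, *Chrm4*, *Chrm5*, *Chrna7*, *Htr1a*, *Htr2a*, *Htr2c*, *Htr3a* and *Htr7*. The samples are bulk tissue, in which fewer cells of a type and less RNA per cell cannot be told apart.

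Markers of some other cells moved with region too. Of 10 granule cell markers, 9 were higher in dorsal DG, and their summed level was 1656 to 1978 CPM in dorsal and 810 to 1182 CPM in ventral samples (lowest and highest over both housings). *Lct*, which is on this list, is named by the study as dorsally enriched, so the sum does not measure granule cell content alone. All 12 choroid plexus markers were higher in ventral DG, with sums of 25.5 to 216 CPM in dorsal and 398 to 1458 CPM in ventral samples. Of 10 habenula and thalamus markers, 5 passed on the dorsal side and 1 on the ventral side, of 10 interneuron markers 2 and 4, and of 10 markers of CA pyramidal and mossy cells 3 and 2. The remaining lists held at most 2 calls each. Of 8 astrocyte markers 0 passed on the dorsal and 2 on the ventral side, and of 8 endothelial and mural markers 0 and 2. The counts were 0 and 1 of 6 microglia markers, 0 and 0 of 8 oligodendrocyte markers, and 1 and 0 of 5 tested Cajal-Retzius markers. Over all tested genes 15.9% and 16.8% passed. *Prox1*, the defining transcription factor of granule cells, was at 105 CPM or more in each sample. How much of the receptor differences these shifts carry was not tested. The choroid plexus covariate given below cannot decide it, because the choroid plexus sums in CPM did not overlap between the regions.

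**Figure D2:**
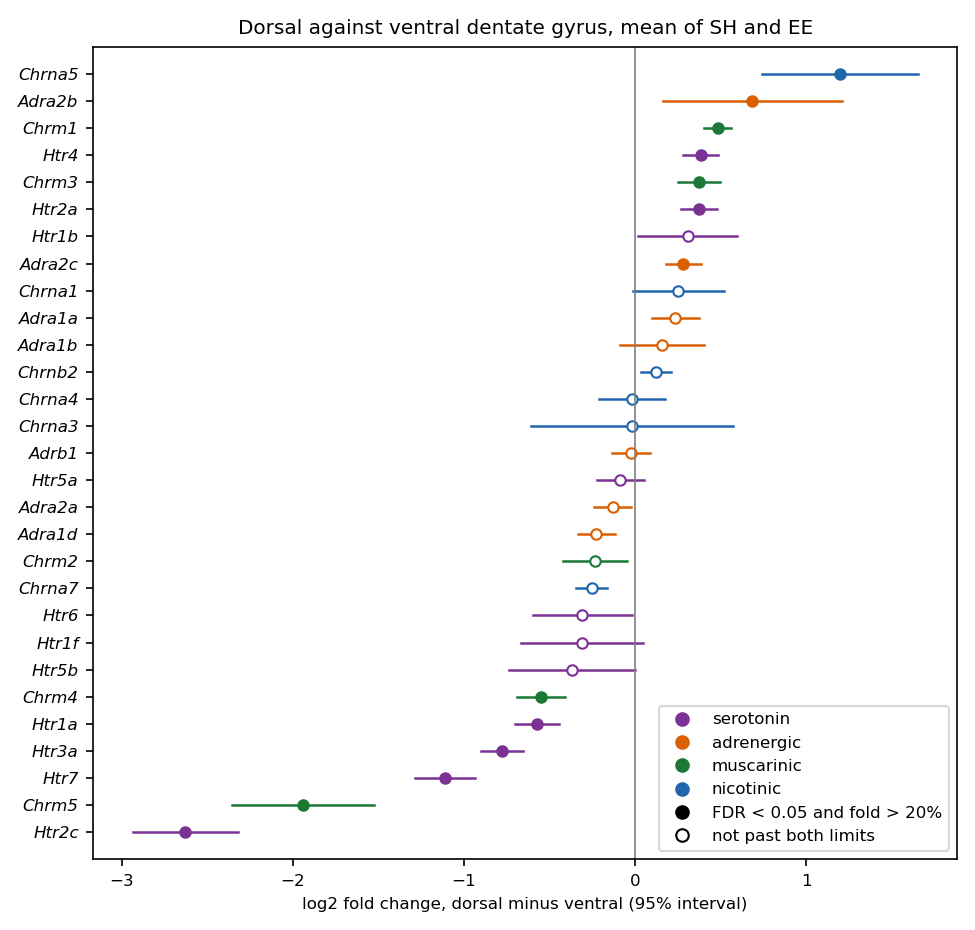
Log2 fold change of dorsal over ventral DG (horizontal), mean of SH and EE, with its 95% interval, for 29 of the 30 genes tested. Filled points passed both limits. *Htr2c* lies farthest to the ventral side at -2.63 and *Chrna5* farthest to the dorsal side at 1.198.

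Among the serotonin receptors, 11 of 14 genes were tested, with 2 higher dorsally, 4 higher ventrally and 5 that did not pass. *Htr2c* (ENSMUSG00000041380.12, chrX:146962513-147197277), the Gq-coupled 5-HT2C receptor, differed most. In dorsal DG it was at 8.07, 3.54, 3.59 and 3.61 CPM in the SH pools and at 6.37, 6.46, 4.59, 3.34 and 4.79 CPM in the EE pools. In ventral DG it was at 23.0, 27.2, 28.6 and 35.1 CPM under SH and 30.7, 24.2, 42.1, 29.9 and 36.8 CPM under EE. Every ventral sample was above every dorsal one. The log2 fold change of dorsal over ventral was -2.63 (SE 0.15; edgeR FDR = 1.2e-12), a 6.18-fold difference.

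Among the ventral samples *Htr2c* moved with the choroid plexus markers. Across the 9 ventral samples its CPM rose with the summed CPM of the 12 markers (Pearson r = 0.903, exact permutation p = 0.00111, adjusted 0.00442; Spearman rho = 0.833, exact permutation p = 0.00827, adjusted 0.0331). Most of this ventral sum was *Ttr* alone, at 347 of 398 CPM in SH replicate 1 and 1304 of 1458 CPM in EE replicate 3. Without the 2 samples farthest from the median sum, r was 0.757. In the 9 dorsal samples r was 0.725 (exact permutation p = 0.0294, adjusted 0.0392) and rho 0.483 (exact permutation p = 0.194, adjusted 0.258), and r was -0.231 without the 2 farthest samples, so the dorsal relation rests on those samples. One of them was dorsal SH replicate 1. Of the 9 dorsal samples it had the highest marker sum, 216 CPM, and the highest *Htr2c*, 8.07 CPM. The left-out dorsal SH replicate 3 was at 8.15 CPM of *Htr2c*, with a marker sum of 38.4 CPM. These tests are 2-sided, pool SH and EE, are adjusted over the 4 relations computed and were chosen after the values were seen. A further edgeR fit took the log2 of the summed TPM of the 12 markers as a covariate. With it, the log2 fold change of *Htr2c* was -1.53 (FDR = 3.21e-05). The markers differ strongly by region, so this covariate largely follows region. No fit with it, here or below, gives the part of choroid plexus in a region difference.

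**Figure D3:**
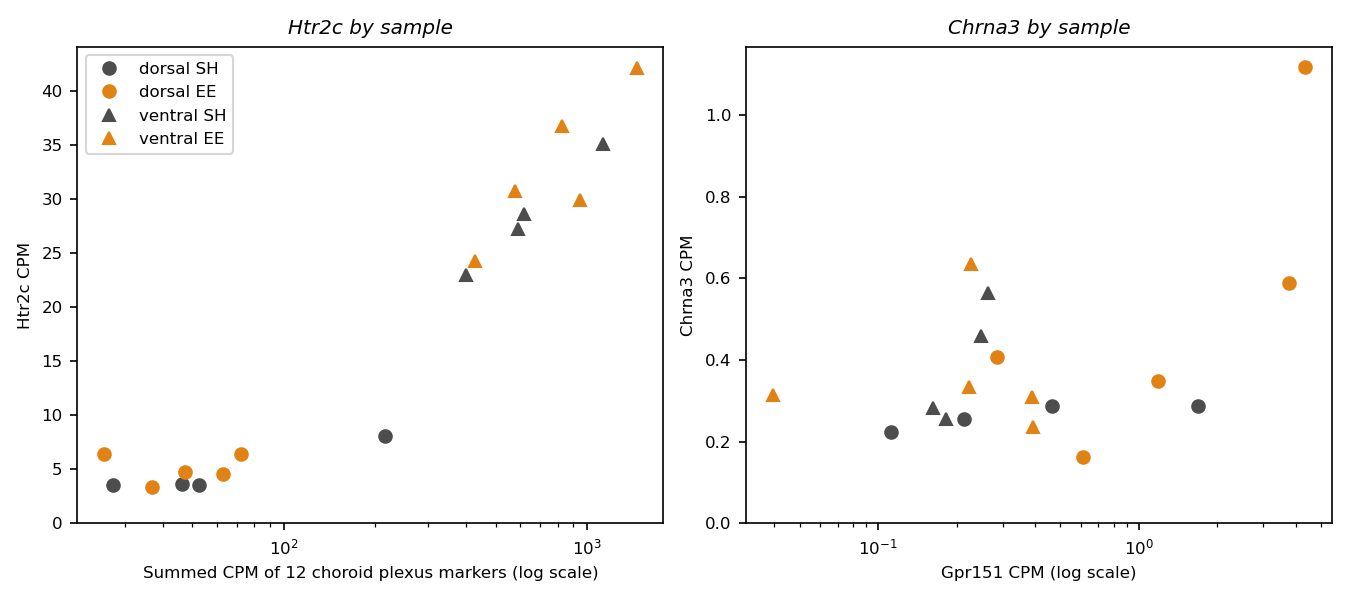
Left, *Htr2c* CPM (vertical) against the summed CPM of 12 choroid plexus markers (horizontal, log scale). Right, *Chrna3* CPM against *Gpr151* CPM, a habenula marker (horizontal, log scale). Each point is 1 of 18 samples, circles dorsal and triangles ventral, grey SH and orange EE. The 9 ventral samples lie at 398 to 1458 CPM of choroid plexus markers and 23.0 to 42.1 CPM of *Htr2c*, and dorsal EE replicate 2 has the highest *Chrna3* at 1.12 CPM.

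*Htr7* (ENSMUSG00000024798.14, chr19:35958734-36057507), the Gs-coupled 5-HT7 receptor, was at 6.74, 5.64, 6.62 and 4.80 CPM in dorsal SH and at 7.62, 5.97, 6.26, 4.49 and 5.80 CPM in dorsal EE. The ventral samples were at 12.7, 13.2, 12.2 and 14.1 CPM under SH and 14.3, 11.05, 15.0, 11.8 and 11.9 CPM under EE. The lowest ventral sample was above the highest dorsal one. On the log2 scale the dorsal over ventral difference was -1.11 (SE 0.09; edgeR FDR = 2.26e-10), or 2.16-fold, and -0.98 with the choroid plexus covariate (FDR = 0.000754).

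*Htr3a* (ENSMUSG00000032269.7, chr9:48899213-48911099), the subunit of the serotonin-gated ion channel, was at 8.61, 9.21, 9.82 and 10.3 CPM in dorsal SH and at 8.54, 9.07, 9.03, 9.13 and 9.72 CPM in dorsal EE. The ventral values were 15.0, 17.8, 16.5 and 16.7 CPM under SH and 15.995, 14.9, 14.0, 13.4 and 18.4 CPM under EE. The regions did not overlap. The difference was 1.71-fold (log2 fold change -0.78, SE 0.06; edgeR FDR = 1.92e-10). Its partner subunit *Htr3b*, which lies beside it on chromosome 9, had at most 2 counts in any sample.

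*Htr1a* (ENSMUSG00000021721.4, chr13:105443639-105448122), the Gi/o-coupled 5-HT1A receptor, was at 22.9, 26.6, 30.7 and 31.3 CPM in dorsal SH and at 24.6, 21.8, 26.5, 26.3 and 20.7 CPM in dorsal EE. In ventral DG it was at 34.6, 39.7, 41.2 and 44.3 CPM under SH and 35.3, 36.1, 34.8, 39.5 and 38.8 CPM under EE. The regions were again separate. Its log2 fold change was -0.57 (SE 0.06; edgeR FDR = 6.56e-08), and -0.74 with the choroid plexus covariate (FDR = 0.000615).

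*Htr2a* and *Htr4* went the other way. *Htr2a* (ENSMUSG00000034997.4, chr14:74640840-74709494), the Gq-coupled 5-HT2A receptor, was at 8.57, 8.19, 9.27 and 8.49 CPM in dorsal SH and at 9.02, 8.16, 9.55, 8.32 and 9.34 CPM in dorsal EE. Its ventral values were 6.99, 7.10, 6.32 and 6.69 CPM under SH and 6.95, 7.06, 6.11, 6.46 and 7.11 CPM under EE, all below the dorsal ones. Dorsal over ventral, the log2 fold change was 0.37 (SE 0.05; edgeR FDR = 1.75e-06), and 0.26 with the choroid plexus covariate, where it did not pass (FDR = 0.0877).

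*Htr4*, the Gs-coupled 5-HT4 receptor, was at 44.5, 47.9, 41.3 and 43.3 CPM in dorsal SH and at 47.6, 58.6, 52.8, 49.1 and 54.0 CPM in dorsal EE. The ventral samples were at 37.2, 35.7, 35.3 and 33.0 CPM under SH and 41.3, 43.3, 33.3, 37.8 and 37.2 CPM under EE. The groups of a housing did not overlap between regions, although the highest ventral EE sample (43.3 CPM) exceeded the lowest dorsal SH sample (41.3 CPM). Its region log2 fold change was 0.39 (SE 0.05; edgeR FDR = 6.69e-07).

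The other 5 serotonin receptors tested did not pass. *Htr5b* (log2 fold change -0.37, FDR = 0.079), *Htr1f* (-0.31, FDR = 0.129) and *Htr6* (-0.31, FDR = 0.0627) had values below 0, *Htr1b* one above (0.31, FDR = 0.0645), and *Htr5a* was near 0 (-0.09, FDR = 0.279). With each pool of mice as a block in the edgeR fit (9 pools, SH and EE pools kept apart), since both regions of a pool came from the same mice, *Htr5b* (-0.39, FDR = 0.0156), *Htr6* (-0.30, FDR = 0.0484) and *Htr1b* (0.30, FDR = 0.0337) passed both limits. No member lost its call under the block.

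Of 9 adrenergic receptor genes 8 were tested, and 2 were higher in dorsal DG, both of the Gi/o-coupled alpha-2 class. *Adra2c* (ENSMUSG00000045318.6, chr5:35278319-35281763), the alpha-2C receptor, was at 27.0, 31.5, 29.7 and 30.8 CPM in dorsal SH and at 33.9, 39.2, 36.7, 39.5 and 32.7 CPM in dorsal EE. In ventral DG it was at 26.3, 25.3, 23.9 and 23.4 CPM under SH and 29.5, 34.2, 27.5, 28.9 and 27.7 CPM under EE. Within a housing, dorsal samples were higher on average, with overlap in EE alone. The log2 fold change was 0.28 (SE 0.05; edgeR FDR = 3.75e-05), a fold change of 1.22 that is close to the limit. With the choroid plexus covariate it was 0.08 (FDR = 0.606), and without SH replicate 5 it was 0.26 and just under the fold limit.

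*Adra2b* (ENSMUSG00000058620.5, chr2:127363208-127367221), the alpha-2B receptor, was rare, at 0.681, 0.452, 0.214 and 0.372 CPM in dorsal SH and at 0.552, 0.414, 0.447, 0.408 and 0.385 CPM in dorsal EE. Its ventral values were 0.530, 0.150, 0.203 and 0.256 CPM under SH and 0.194, 0.317, 0.353, 0.276 and 0.148 CPM under EE. The regions overlapped, although dorsal was higher in 9 of 9 pools. Dorsal over ventral, the log2 fold change was 0.69 (SE 0.25; edgeR FDR = 0.0236). The call was lost without SH replicate 2 (0.57, FDR = 0.0745), without EE replicate 1 (0.59, FDR = 0.0726) and with the choroid plexus covariate (1.21, FDR = 0.0916). It was also lost in a joint edgeR test of both housings and under a limit of TPM over 1 in at least 3 samples. In neither housing alone did *Adra2b* pass (edgeR FDR = 0.211 in SH and 0.0662 in EE).

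The other adrenergic receptors did not pass both limits. *Adra1d*, the most abundant of them, was at 32.9 to 40.9 CPM in dorsal and 36.1 to 50.9 CPM in ventral samples (log2 fold change -0.23, FDR = 0.000719), and *Adra1a* had a value of 0.24 (FDR = 0.00417) and *Adra2a* of -0.13 (FDR = 0.0362), all within the 20% limit. *Adrb1*, the Gs-coupled beta-1 receptor, was near 0 (-0.02, FDR = 0.727), with a 95% interval of -0.13 to 0.09. *Adra1b* (ENSMUSG00000050541.13, chr11:43774606-43901210), the Gq-coupled alpha-1B receptor, was at 2.62, 3.74, 1.92 and 2.53 CPM in dorsal SH and 2.39, 2.40, 2.07, 1.75 and 1.71 CPM in dorsal EE, and at 2.26, 1.503, 1.99 and 1.97 CPM in ventral SH and 2.72, 2.26, 2.19, 2.40 and 2.00 CPM in ventral EE. All 4 groups overlapped, and its mean difference was 0.16 (SE 0.12; edgeR FDR = 0.263).

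The muscarinic receptors split, with 2 genes higher in each region and *Chrm2* within the limit (-0.23, FDR = 0.0299). *Chrm1* (ENSMUSG00000032773.8, chr19:8663789-8683587), the Gq-coupled M1 receptor, was at 205, 188, 203 and 208 CPM in dorsal SH and 192, 194, 203, 201 and 189.9 CPM in dorsal EE. Its ventral values were 134, 142, 156 and 143 CPM under SH and 129.9, 134, 138, 150.03 and 150.2 CPM under EE. The regions were far apart relative to the spread between pools. Its region log2 fold change was 0.48 (SE 0.04; edgeR FDR = 2.54e-10), and 0.59 with the choroid plexus covariate (FDR = 1.87e-05). *Chrm3*, the M3 receptor, was at 37.9 to 48.9 CPM in dorsal and 27.6 to 38.5 CPM in ventral samples (0.37, SE 0.06; edgeR FDR = 1.21e-05).

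*Chrm4* (ENSMUSG00000040495.4, chr2:91927249-91928688), the Gi/o-coupled M4 receptor, was at 5.95, 6.29, 7.05 and 6.52 CPM in dorsal SH and 6.34, 6.13, 4.88, 4.36 and 5.80 CPM in dorsal EE. It was at 7.80, 8.15, 8.71 and 9.35 CPM in ventral SH and 9.59, 9.60, 8.31, 8.27 and 9.003 CPM in ventral EE, above every dorsal sample. On the log2 scale the dorsal over ventral difference was -0.55 (SE 0.07; edgeR FDR = 4.16e-07).

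*Chrm5* (ENSMUSG00000074939.3, chr2:112479171-112480769), the Gq-coupled M5 receptor, was scarce in dorsal DG, at 0.323, 0.576, 0.427 and 0.633 CPM under SH and 0.663, 0.456, 0.529, 0.285 and 0.245 CPM under EE. The ventral samples were at 1.201, 2.18, 1.86 and 1.83 CPM under SH and 1.79, 1.95, 1.84, 0.984 and 2.45 CPM under EE. No ventral sample reached down to the dorsal range. The log2 fold change was -1.94 (SE 0.20; edgeR FDR = 2.68e-08), a 3.84-fold difference, and -2.24 with the choroid plexus covariate (FDR = 0.00133).

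Of 13 nicotinic subunit genes 6 were tested, and *Chrna5* passed. *Chrna5* (ENSMUSG00000035594.9, chr9:54980880-55007779), an accessory alpha subunit, was at 0.896, 1.40, 1.49 and 2.01 CPM in dorsal SH and 1.62, 1.95, 1.91, 2.45 and 1.33 CPM in dorsal EE. In ventral DG it was at 0.388, 0.488, 0.892 and 0.585 CPM under SH and 0.427, 1.22, 1.49, 0.591 and 0.630 CPM under EE. Dorsal was higher in 9 of 9 pools, with overlap between the lowest dorsal and the highest ventral samples. Its region log2 fold change was 1.198 (SE 0.22; edgeR FDR = 6.95e-05), a 2.29-fold difference, and 0.88 with the choroid plexus covariate, where it did not pass (FDR = 0.184).

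The more abundant subunits differed little. *Chrna7* was at 26.4 to 31.0 CPM in dorsal and 31.6 to 38.3 CPM in ventral samples, without overlap, but its log2 fold change of -0.25 (SE 0.04; edgeR FDR = 4.02e-05) was within the 20% limit. *Chrnb2*, a main beta partner in brain, had a log2 fold change of 0.13 (FDR = 0.0155) and was higher in dorsal DG in 9 of 9 pools, and *Chrna4*, its usual alpha partner, had -0.02 (FDR = 0.896). With the choroid plexus covariate both passed on the dorsal side, *Chrnb2* at 0.37 (FDR = 0.00138) and *Chrna4* at 0.57 (FDR = 0.00889). *Chrna1* (0.25, FDR = 0.0958) and *Chrna3* (-0.02, FDR = 0.965) did not pass.

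**Figure D4:**
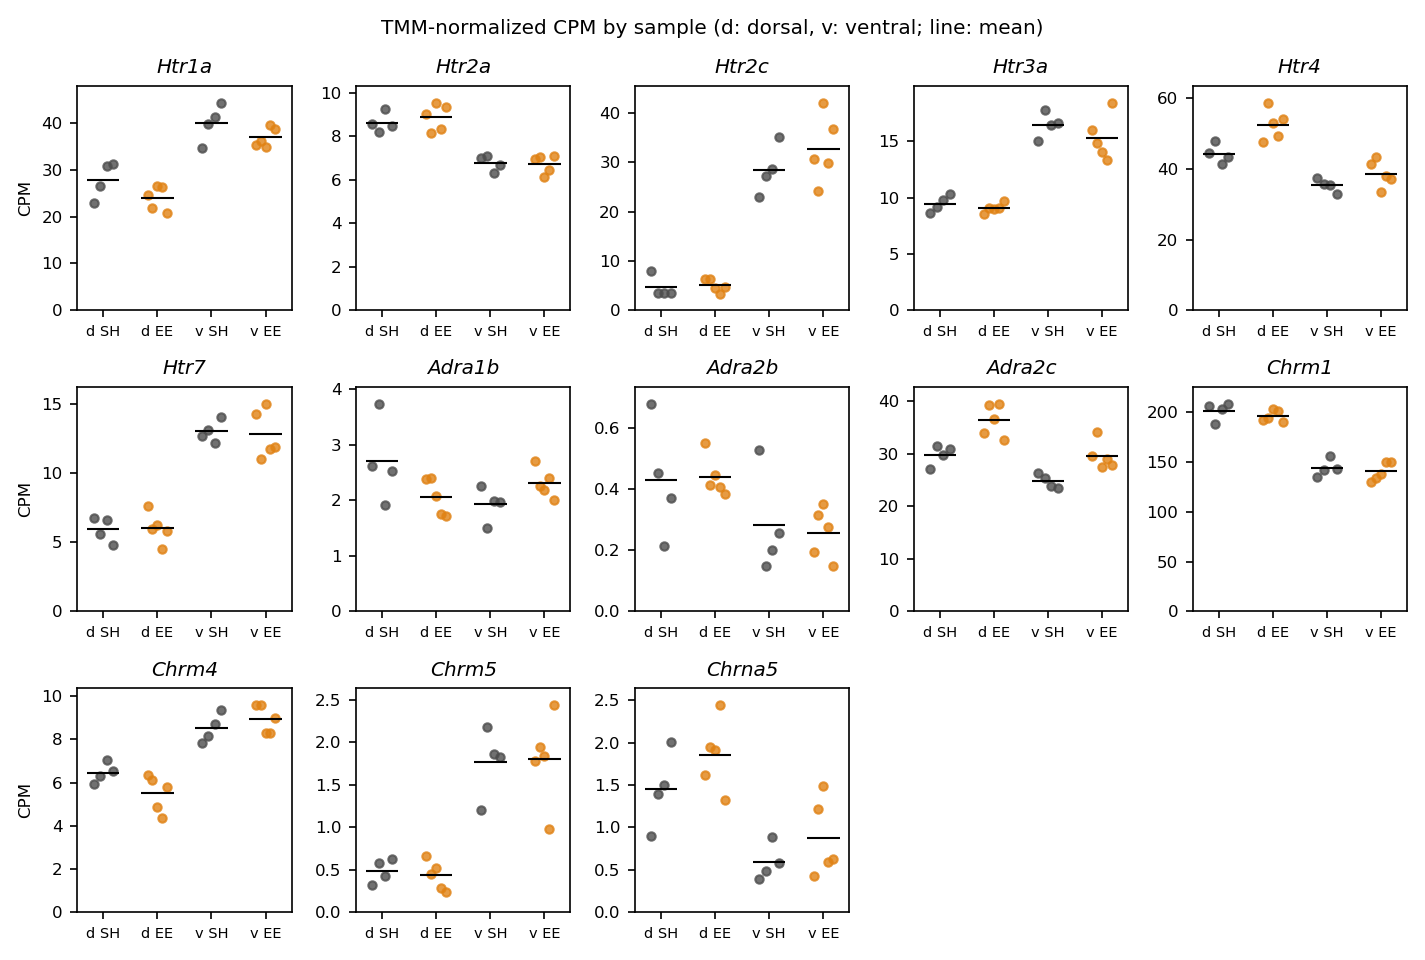
CPM after TMM normalization (vertical, from 0) of 13 receptor genes in each sample of dorsal (d) and ventral (v) DG, grey SH (n = 4 pools per region) and orange EE (n = 5 pools per region). Lines are group means. *Htr2c*, *Htr7*, *Htr3a*, *Htr1a*, *Chrm4* and *Chrm5* are higher in every ventral sample, and *Chrm1* and *Htr2a* in every dorsal sample.

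The region difference was also taken within each housing. In SH, 16 of 30 genes passed both limits (53.3%, background 28.3%), 8 on the dorsal side (background 14.1%) and 8 on the ventral side (background 14.2%). In EE, 12 of 30 passed (40.0%, background 29.8%), 6 on the dorsal side (background 14.1%) and 6 on the ventral side (background 15.8%). All 12 genes called in EE were among the 16 called in SH (75% of the SH calls). The 4 called in SH alone were *Adra1a*, *Adra1b*, *Adra1d* and *Chrna7*, and for none of the 30 did the difference between the housings pass its own test (lowest edgeR FDR = 1).

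The next question was whether EE changed the receptors. In dorsal DG 1 of 30 genes passed (3.33%), against 0.634% of all tested genes, and an unadjusted p under 0.05 was reached by 6 (20%, background 8.81%), *Adra1b*, *Adra2c*, *Chrm4*, *Chrna3*, *Htr1a* and *Htr4*. In ventral DG 0 of 30 passed in edgeR (background 0.241%) and 0 in DESeq2, and 4 reached an unadjusted p under 0.05 (13.3%, background 7.58%), *Adra1a*, *Adra1d*, *Adra2a* and *Adra2c*. The median absolute log2 fold change was 0.09 in dorsal and 0.12 in ventral DG, against 0.07 over all tested genes in each region.

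The gene that passed was *Adra2c*. Its dorsal values, given above, lay between 32.7 and 39.5 CPM in EE and between 27.0 and 31.5 CPM in SH, so the housings did not overlap. Its log2 fold change of EE over SH was 0.29 (SE 0.07; edgeR FDR = 0.0497), a fold change of 1.22. In ventral DG EE was also above SH in every sample, at 27.5 to 34.2 against 23.4 to 26.3 CPM. Its ventral log2 fold change of 0.26 (SE 0.07) did not pass (edgeR FDR = 0.189). Without overlap between housings there were 1 of 30 genes in dorsal (background 3.99%) and 2 of 30 in ventral DG, *Adra2a* and *Adra2c* (background 2.45%).

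The difference between the EE effects of *Adra2c* in the regions was 0.03 (SE 0.10; edgeR FDR = 1), with a 95% interval of -0.17 to 0.24. The dorsal call was at the limit and depended on single pools. It was lost when any of SH replicates 1, 2, 4 or 5 or EE replicates 1, 2, 3 or 4 was left out, and kept without EE replicate 5, while the log2 fold change stayed between 0.25 and 0.33. Over all alternatives run its edgeR or DESeq2 FDR lay between 0.00904 and 0.361.

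The other genes with a small unadjusted p did not pass in edgeR. *Htr4* had a log2 fold change of 0.24 in dorsal DG (SE 0.07; FDR = 0.135) and 0.13 in ventral DG (SE 0.07; FDR = 0.72). *Htr1a* had -0.22 in dorsal (FDR = 0.454) and -0.12 in ventral DG (FDR = 0.809), and *Chrm4* had -0.22 (FDR = 0.513) and 0.07 (FDR = 0.892). *Adra1b* had -0.39 in dorsal DG (95% interval -0.73 to -0.05, FDR = 0.471) and 0.26 in ventral DG (-0.10 to 0.61, FDR = 0.778), and the difference of -0.65 between them (SE 0.24) did not pass (edgeR FDR = 1).

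In the test of that difference, 0 of 30 genes passed in edgeR (background 0.00587%) and 0 in DESeq2, and 3 reached an unadjusted p under 0.05 (10.0%, background 3.25%), *Adra1b*, *Adra2a* and *Chrm4*. For the abundant *Chrm1* the interval of the EE effect was -0.15 to 0.07 in dorsal and -0.14 to 0.08 in ventral DG. For scarce genes it was wide, as for *Chrm5* in dorsal DG (-0.91 to 0.58).

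**Figure D5:**
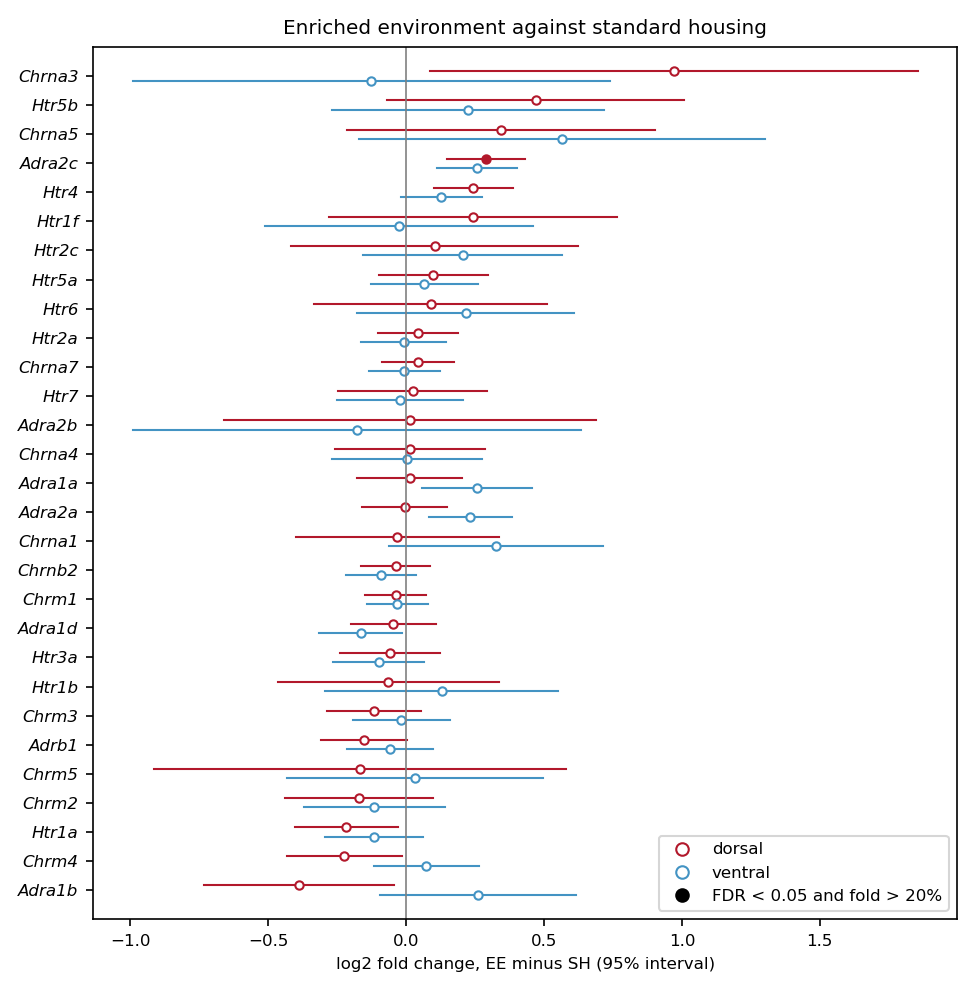
Log2 fold change of EE over SH (horizontal) with its 95% interval for 29 of the 30 genes tested, dorsal DG in red and ventral DG in blue. The filled point, *Adra2c* in dorsal DG at 0.29, passed both limits, and the open points did not.

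*Chrna3* had the largest dorsal value, 0.97 (SE 0.43; edgeR FDR = 0.497), and was set beside habenula markers. It was at 0.287, 0.288, 0.256 and 0.223 CPM in dorsal SH and at 0.589, 1.12, 0.163, 0.408 and 0.350 CPM in dorsal EE, so EE replicates 1 and 2 stood above the rest. *Gpr151*, an orphan receptor of habenula neurons, was at 3.76 and 4.35 CPM in these 2 samples and at 0.112 to 1.69 CPM in the other dorsal samples. *Chrnb4*, the neighbour of *Chrna3* on chromosome 9, was highest in dorsal EE replicate 2 as well (0.746 CPM, 18 counts, against 0 to 0.204 CPM).

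Across the 9 dorsal samples *Chrna3* and *Gpr151* gave r = 0.866 (exact permutation p = 0.0051, adjusted 0.0102) and rho = 0.683 (exact permutation p = 0.0503, adjusted 0.101), 2-sided. Without the 2 samples farthest from the median of *Gpr151*, r was 0.155, so the relation rests on those samples. *Gpr151* was chosen after the values were seen, from a list of 10 habenula and thalamus markers whose summed level did not follow it. On this list *Pou4f1* (1.105 and 0.870 CPM) and *Tac2* (1.66 and 3.15 CPM) were also highest in dorsal EE replicates 1 and 2. *Slc17a6* was highest in EE replicate 2 (24.4 CPM), but higher in SH replicate 1 (20.6 CPM) than in EE replicate 1 (15.0 CPM). The other markers are not given by sample. The sum of the list was highest in dorsal SH replicate 1 (342.6 CPM, *Chrna3* 0.287 CPM), above EE replicates 1 and 2 (308.8 and 306.5 CPM). *Chrna3* and this sum gave r = 0.345 (exact permutation p = 0.353, adjusted 0.353) and rho = 0.35 (exact permutation p = 0.359, adjusted 0.359), and r was 0.809 without the 2 samples farthest from the median sum. The part of habenula RNA in the values of these subunits was not tested. With dorsal EE replicates 1 and 2 and dorsal SH replicate 1 left out, no receptor gene passed in the EE comparison of either region in edgeR. Over all 16945 genes then tested, 41 passed in dorsal and 39 in ventral DG. In the region comparison 16 of 30 receptor genes passed, against 5537 of all 16945 genes, and *Adra2b* lost its call (FDR = 0.154).

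The genes around the receptors were counted by region in 6 lists, to be read against 15.9% of all tested genes called higher in dorsal and 16.8% called higher in ventral DG. Of 17 genes of transmitter synthesis, transport and breakdown, 11 were tested, of which 3 passed on the dorsal side and 2 on the ventral side. *Tph2*, which makes serotonin in neurons, was at 3.55 to 4.93 CPM in dorsal and 0.926 to 1.75 CPM in ventral samples (log2 fold change 1.59, edgeR FDR = 1.11e-11), and *Dbh*, which makes noradrenaline, at 1.47 to 2.39 and 0.235 to 0.742 CPM (2.08, edgeR FDR = 7.81e-11). *Slc18a2*, the vesicular monoamine transporter, was higher in dorsal DG (0.87, FDR = 2.18e-05). *Th* was higher in ventral DG (-2.24, FDR = 0.0127), but at most 1.58 CPM with overlapping regions. *Slc6a4*, *Slc6a2*, *Chat*, *Slc18a3*, *Tph1* and *Pnmt* were below the count limit.

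Downstream of the receptors, 1 of 10 G protein alpha subunits was higher in dorsal (*Gnal*, 0.36) and 3 in ventral DG (*Gnai1*, -0.52, *Gnas*, -0.32, and *Gnai2*, -0.27). Of 12 adenylyl cyclases and phospholipase C beta genes, 3 were higher in each region. *Adcy1*, a calmodulin-stimulated cyclase, was at 2926 to 3572 CPM in dorsal and 1147 to 1668 CPM in ventral samples (1.38, edgeR FDR = 1.51e-14), and *Adcy5* (-0.55), *Plcb2* (-0.42) and *Adcy2* (0.41) also passed. Of 15 receptor kinases, arrestins and RGS genes, 2 were higher in dorsal (*Rgs2*, 0.42, and *Rgs16*, 0.31) and 1 in ventral DG (*Grk3*, a receptor kinase, -0.75).

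Of 11 nicotinic receptor chaperones and Ly6 modulators, none was higher in dorsal and 5 were higher in ventral DG. They included *Lynx1* (-0.48), *Lypd1* (-0.55) and *Ly6h* (-0.92), small proteins that bind nicotinic receptors, and *Musk* (-1.19), which organizes the nerve-muscle synapse and had fewer than 1 CPM on average. Of 8 serotonin receptor partners and RNA editing genes, *S100a10*, the p11 protein that binds serotonin receptors, was higher in ventral DG (-0.88, edgeR FDR = 1.98e-08) and *Adarb2*, also an interneuron marker, in dorsal DG (0.63, edgeR FDR = 5.36e-14).

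In the EE comparison 2 of the 67 tested genes of these lists passed in dorsal DG (background 0.634%) and 1 in ventral DG (background 0.241%), and they were named after their values were seen. *Rgs4*, a brake on Gi/o and Gq signaling, was higher in EE in both regions, at 119.6 ± 3.14 CPM (SD, n = 4) in SH and 165 ± 10.9 CPM (SD, n = 5) in EE in dorsal DG (log2 fold change 0.47, edgeR FDR = 0.000202) and at 131 ± 6.63 CPM (n = 4) and 159.98 ± 13.5 CPM (n = 5) in ventral DG (0.29, edgeR FDR = 0.0305). *Ly6g6e* rose in dorsal DG from 0.319 ± 0.072 CPM (n = 4) to 0.928 ± 0.201 CPM (n = 5) (1.52, edgeR FDR = 0.0383).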

How the data were processed

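Total RNA from pooled dorsal and ventral DG punches was sequenced. Per the submitters' processing notes, the authors used Trim Galore 0.4.0, STAR 2.5.1b and RSEM 1.2.30 on the mouse genome mm10 with Gencode annotation. The deposited STAR tables hold counts per gene, unstranded and for each strand, and the deposited RSEM tables hold expected counts and TPM. The stranded counts were tested, and TPM was used to rank genes within samples. The log2 of the summed TPM of the choroid plexus markers was the choroid plexus covariate. Expected counts were rounded to whole numbers for an alternative fit. Per sample, 22919364 to 28301861 fragments lay on genes, and rows that name no gene held a further 32.583% to 40.893% and were left out.

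Groups came from the sample labels. SH replicate 3 was left out in both regions by the rule set for these genes, and it returns in an alternative. The study left out an SH sample for its high level of *Xist*, a noncoding RNA of females, without giving its number in the methods. The 40 bisulfite and TAB samples were not analysed here. A gene was kept if 2 or more samples had over 10 counts, and all kept genes were fitted over all 4 groups with TMM factors and the quasi-likelihood test of edgeR 4.0.16 in R 4.3.3. A call needed a Benjamini-Hochberg FDR under 0.05 over all 17040 genes and a fold change over 20%, and 6 comparisons were made. P-values measure the spread between pools. DESeq2 1.42.0, edgeR's likelihood ratio test, other filters and scalings, the unstranded counts, a block (the pool for region results, the replicate number for EE results), a choroid plexus covariate and the omission of each replicate were alternatives. Scripts were tested on simulated data. Tables used Python 3.11.15 and pandas 2.3.3, permutation tests scipy 1.17.1, and figures matplotlib 3.10.9.

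Both regions of a pool came from the same mice, so these samples are paired by design. Over 9 pools the mean correlation of their deviations from the group means was 0.0827 (range -0.0840 to 0.189). Per-sample values are given for genes called in an EE or interaction test, for *Htr1a*, *Htr2a*, *Htr2c*, *Adra1b* and *Chrm1*, and for the 3 called genes of each family with the largest absolute log2 fold change (5 for *Htr*), with up to 4 genes named per pathway list. The receptor genes and all lists were chosen with earlier results of these data known. Symbols and mm10 positions are from Gencode vM21, matched by gene identifier, and 3 list genes were matched by an older symbol. The values of 1 of the 30 tested genes are not reported here, although it is included in the counts.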

Additional observations from a re-analysis of the deposited data

Results flagged for a closer look

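*Htr2c* in dorsal SH replicate 1, at 8.07 CPM, lay far from the other dorsal SH pools used, which were at 3.54 to 3.61 CPM. It was the 1 group of 52 tested in which a sample stood apart by Dixon's criterion. Chance flags about 1 group in 20, so the number of flags, 1 among 52 groups, is not more than chance gives. This count does not take in how far the value lay from the others. The same sample had the highest dorsal sum of choroid plexus markers (216 CPM). The left-out dorsal SH replicate 3, not part of the group tested, was at 8.15 CPM of *Htr2c* and 38.4 CPM of these markers. The part of these cells in either value was not tested.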

How the results depend on the processing

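Of 127 counts of called genes recomputed under 21 other settings and 1 more chosen after seeing the data (dorsal SH replicate 1 and dorsal EE replicates 1 and 2 left out), 113 stayed within 1.5 times the value reported. These include counts of 0 that stayed 0, in all settings for the interaction and in all but the replicate block for ventral EE. The region comparison gave 12 to 18 receptor genes when single replicates were left out, and 12 to 18 in SH and 12 to 14 in EE. Over all tested genes these fits called 5162 to 5607, 3954 to 4905 in SH and 4650 to 5093 in EE. In SH the region comparison gave 10 receptor genes in place of 16 with the choroid plexus covariate, against 4837 of all 17040 genes. The dorsal EE count of 1 was 0 with RSEM expected counts, 0 with the covariate and 0 without the 3 dorsal libraries, 2 with the replicate number as a block (*Adra2c* and *Htr4*), and 0 to 1 when single replicates were left out. The ventral EE count of 0 was 1 with this replicate block, under which *Adra2c* had 0.27 (FDR = 0.0462), and 0 to 0 when single replicates were left out. The block in these EE fits ties SH and EE pools that share only a number (over 8 pairs the mean correlation of deviations was 0.126, range 0.0815 to 0.175), so the calls it adds rest on a pairing that the labels do not give.

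The interaction of *Adra2c*, 0.03, was -0.0085 with the covariate, -0.039 without SH replicate 1, -0.0044 without EE replicate 4 and -0.012 without the 3 dorsal libraries, all within its SE of 0.10. Of 371 values of single genes, 343 kept direction and call, 23 lost the call, 1 gained it and 4 changed sign, and the causes were not tested. The region comparisons had another replicate block, the pool itself, with SH and EE pools kept apart. With it, 16 receptor genes were called between regions in place of 13, 18 in SH and 13 in EE. Of all 17040 genes, 5611, 4987 and 5214 were called in these comparisons. Depth limits genes below about 1 CPM.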
